A study of Mus musculus with 8 samples.

Results

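The 9 genes described here mark astrocytes and the glioblasts from which astrocytes form: *Aldh1l1*, *Gfap*, *Aqp4*, *S100b*, *Slc1a2*, *Aldoc*, *Tnc*, *Apoe* and *Gja1*. They were chosen by name, with earlier results of these data known. All 9 were found among the 54752 gene identifiers of the count tables. All 9 were also among the 17865 genes that passed the filter on low counts (edgeR's filterByExpr, minimum count 10, by group). RNA was sequenced from 8 wild type mouse brains of the strain labelled C57BL/6 (C57BL/6Slac in the study's methods) collected at E15.5, 1 library per brain. The methods describe the tissue as whole brain, while the study's library list enters it as half_whole_brain, so whether both hemispheres were taken is not settled by the sources used here. The 4 stress brains, named by sex as F34, F35, M28 and M29 (F for female, M for male), came from a dam exposed to chronic unpredictable mild stress (CUMS), a changing series of mild stressors given daily during pregnancy, and the 4 control brains, F36, F37, M30 and M31, came from a dam without CUMS. The study's library list places the stress brains in 1 litter and the control brains in 1 other litter, so condition and litter cannot be told apart, and every error below measures the spread among littermates.

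Astrocytes are the star-shaped glial cells that take up neurotransmitters, buffer ions and water, supply metabolites and lipids to neurons, and cover blood vessels with their endfeet. In the mouse brain they form late in gestation and after birth, when radial glia, the stem cells that first make neurons, turn to making glia through an intermediate cell called the glioblast. This turn is driven by transcription factors such as NFIA and SOX9 and by cytokines that act through JAK and STAT proteins, and the genes of mature astrocytes are then switched on in sequence. In RNA from brain tissue with all its cell types, fewer cells of a type and less RNA per cell cannot be told apart.

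Library totals lay between 25320109 and 29105710 counts of read pairs, and mitochondrial genes took at most 2.31% of them. Expression is given as CPM (the count of a gene scaled to a fixed library size) on library totals scaled by edgeR's TMM method. Where different genes are set side by side, it is given as RPKM, which is CPM divided by the gene's exon length in kilobases. The comparison of stress with control is a log2 fold change (Log2FC, negative where stress was lower) with its standard error (SE) and 95% interval, from the quasi-likelihood test of edgeR, in a model that also held sex. Adjusted p-values are by the Benjamini-Hochberg method over all 17865 genes, and a gene was called below 0.05. The common coefficient of variation among brains of a group, beyond counting error, was 3.14%.

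The 9 genes spanned a wide range of levels in the E15.5 brain. In the control brains, *Aldoc* was the highest at 33.9 ± 1.18 RPKM (SD, n = 4), followed by *Apoe* at 28.9 ± 1.28 RPKM, *Tnc* at 26.4 ± 0.540 RPKM, *Slc1a2* at 12.2 ± 0.294 RPKM and *Aldh1l1* at 10.8 ± 0.589 RPKM. The remaining 4 were low, with *Gja1* at 2.25 ± 0.122 RPKM, *Aqp4* at 1.29 ± 0.118 RPKM, *S100b* at 0.862 ± 0.116 RPKM and *Gfap* at 0.267 ± 0.0498 RPKM. In the control brains no gene's range touched that of its neighbor in this order. All genes tested were also ranked by mean RPKM over the 8 brains of both groups. In this ranking, 7.999% of genes stood at or above *Aldoc* and 93.8% at or above *Gfap*. *Gfap* is the filament gene by which mature astrocytes are most often recognized. In the stress brains the order of the 9 genes was that of the control brains, except that *Apoe* and *Tnc* changed places. *Tnc* at 26.2 ± 0.863 RPKM there stood above *Apoe* at 23.8 ± 1.75 RPKM. In the stress brains the ranges of *Slc1a2* and *Aldh1l1* overlapped, as did those of *Aqp4* and *S100b*.

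**Figure D1:**
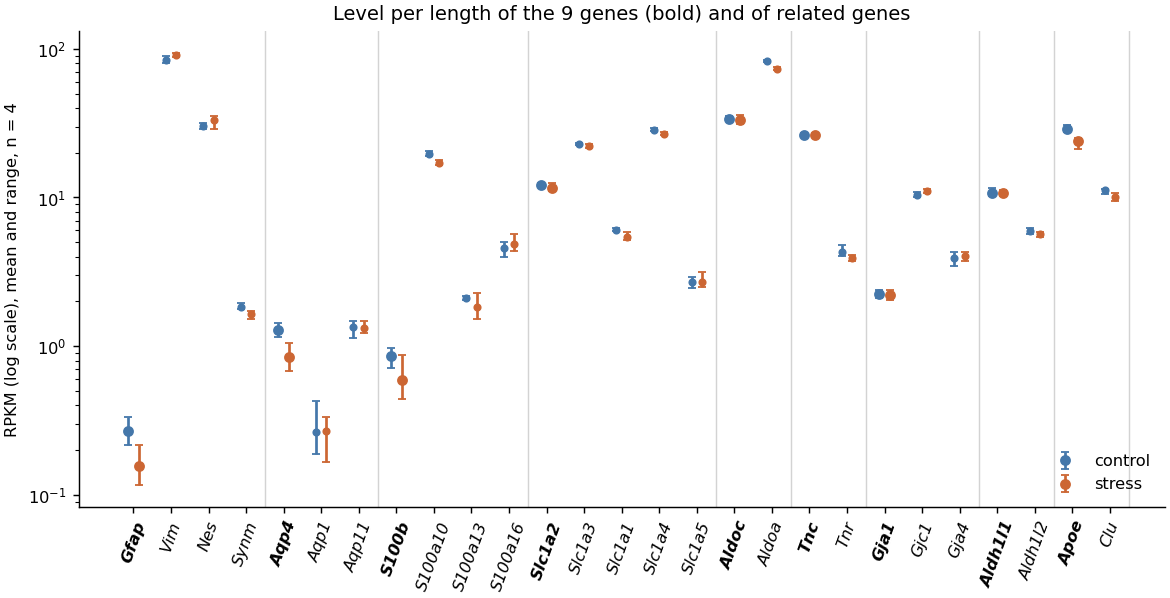
Level per exon length of the 9 genes (bold) and of genes related to them, in RPKM on a log axis; points are the mean of 4 brains and bars run from the lowest to the highest brain, control in blue and stress in orange. *Gfap* sits lowest of all genes drawn, at 0.267 RPKM in control and 0.157 RPKM in stress, while *Aldoc* sits at 33.9 and 33.0 RPKM.

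Stress brains had lower expression of 3 of the 9 genes, *Gfap*, *Aqp4* and *Apoe*, and none of the 9 was called higher. Over all genes tested, 7.27% were called lower and 6.49% higher. Because the 9 genes were chosen with earlier results known, shares of all genes are set beside them as description only. At an unadjusted p below 0.05 *S100b* also counted as lower, which made 4 of 9 beside 13.7% of all genes, and none counted as higher, beside 13.2%. With DESeq2's Wald test 2 were called lower, *Aqp4* and *Apoe*, beside 911 of all 17865 genes. None of the 9 was called higher by that test, beside 748 of all genes. *Gfap*, *Aqp4* and *Apoe* were also the 3 genes in which every stress brain was below every control brain, and none of the 9 was apart in the other direction. Over all genes, 8.22% were apart with stress lower and 8.2% with stress higher. The Log2FC was negative for all 9 genes, with a median of -0.07, beside a median of 0.00148 over all genes tested. For 5 of them the 95% interval included 0, and for *Aldh1l1*, *Tnc* and *Gja1* the value crossed 0 when single brains were left out.

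**Figure D2:**
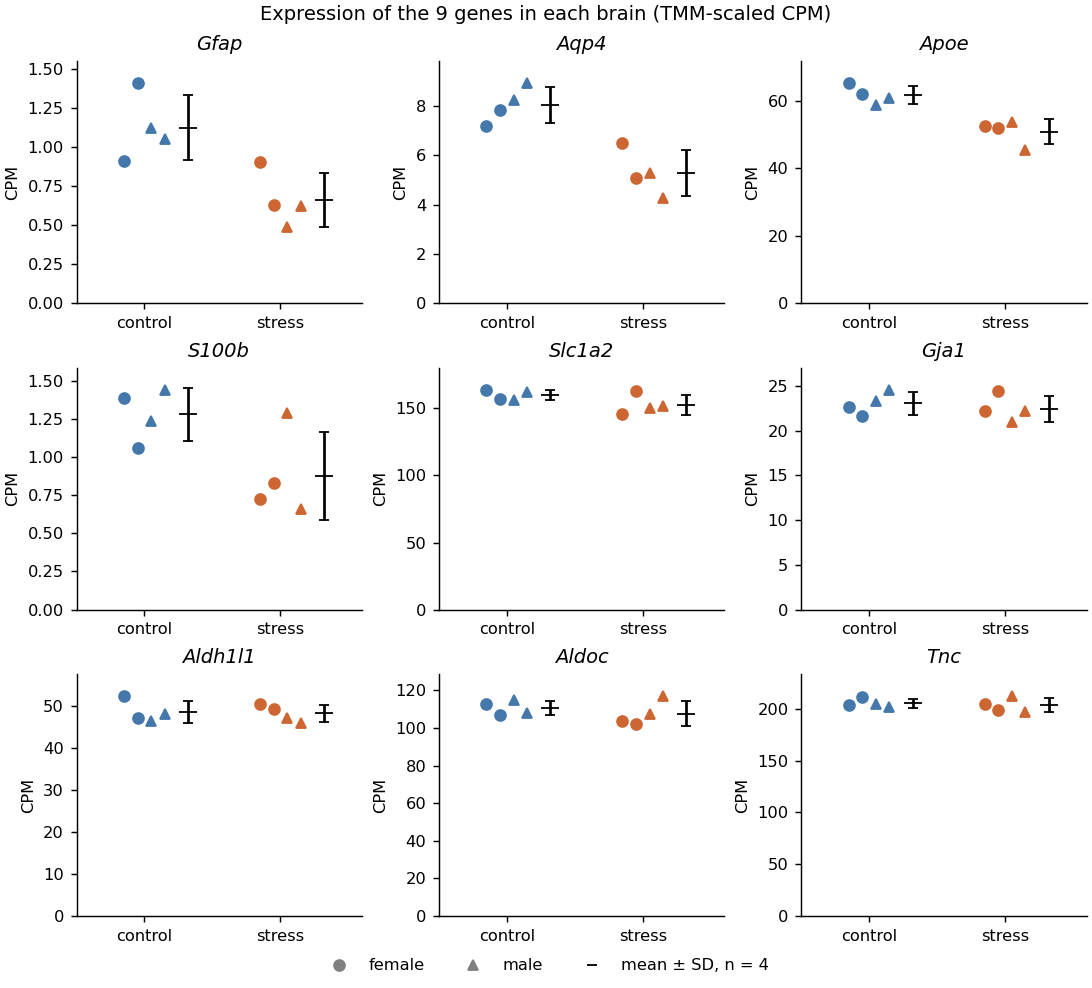
Expression of the 9 genes in each brain, in TMM-scaled CPM, with control in blue, stress in orange, females as circles and males as triangles; the black bar is the mean ± SD of 4 brains. The stress brains lie below all control brains for *Gfap* (0.488 to 0.905 against 0.910 to 1.41 CPM), *Aqp4* (4.25 to 6.52 against 7.17 to 8.93 CPM) and *Apoe* (45.5 to 53.9 against 58.8 to 65.3 CPM), and the groups overlap for the other 6.

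*Gfap* encodes glial fibrillary acidic protein, the intermediate filament of mature astrocytes. It is listed as ENSMUSG00000020932.14 at chr11:102887336-102900912 of mm10 on the minus strand, with 4218 exon bases. To place it beside the STAT route of gliogenesis, the window from 250 bases before to 50 bases after each RefSeq transcript start (GRCm38.p6) was read for the STAT element TTCNNNGAA, which is its own reverse complement. Below is the part from 100 bases before to 10 bases into the *Gfap* transcript, chr11:102897191-102897300 on the minus strand, with the match in capitals.
Gfap: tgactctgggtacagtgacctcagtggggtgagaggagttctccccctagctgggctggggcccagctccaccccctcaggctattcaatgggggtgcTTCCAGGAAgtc
This RefSeq start lies within the span that the count table gives *Gfap*. The match begins at position -2 from this start and runs into the transcript. Sequence more than 250 bases before a start was not read. Of the 12 windows held for 8 of the 9 genes, 2 contained the element, those of *Gfap* and *Aldoc*, and 8.30% of 32851 windows of all genes did. In *Aldoc* the element occurred at 2 places in 1 window, shown with 8 flanking bases on each side at chr11:78324066-78324090 and chr11:78324107-78324131 on the plus strand.
Aldoc first: gggccagaTTCAGTGAAagaagagc
Aldoc second: gcagcagtTTCCAGGAAgacctgtg
These are matches of letters, and binding at them was not measured.

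*Gfap* was counted 25, 40, 31 and 30 times in control F36, F37, M30 and M31. In the stress brains F34, F35, M28 and M29 it was counted 25, 16, 14 and 18 times. The highest stress brain and the lowest control brain thus had the same count, and on the CPM scale they were only just apart, at 0.905 and 0.910 CPM. The mean was 1.12 ± 0.210 CPM in control and 0.662 ± 0.175 CPM in stress (SD, n = 4), with a Log2FC of -0.76 (SE 0.22, 95% interval -1.23 to -0.30) and an adjusted p of 0.0231. At this depth counting error alone gives a coefficient of variation of 17.8% in control and 23.4% in stress, and the measured values were 18.7% and 26.5%. The call was lost with DESeq2 (adjusted p = 0.106). It was also lost when control F37, M30 or M31 or stress F35, M28 or M29 was left out, with adjusted p between 0.0514 and 0.103 and a Log2FC between -0.78 and -0.66. The exact permutation p over the 8 brains was 0.0286, the smallest that 4 against 4 can give, as it was for *Aqp4* and *Apoe*.

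Of 3 other intermediate filaments of glia and their stem cells, 2 rose and 1 did not pass, with a median Log2FC of 0.12. *Vim* (vimentin), the filament of radial glia and immature astrocytes, rose from 397 ± 19.1 to 430 ± 13.3 CPM (Log2FC = 0.12, SE 0.03, adjusted p = 0.00643). *Nes* (nestin), the filament of neural stem cells, rose from 194 ± 8.05 to 213 ± 19.2 CPM (Log2FC = 0.14, SE 0.04, adjusted p = 0.0185). The *Nes* call was lost without control F37, stress F34 or stress M29, with no sex covariate and with DESeq2 (adjusted p = 0.204). *Synm* (synemin), which assembles with both, was at 14.5 ± 0.608 CPM in control and 13.1 ± 0.742 CPM in stress and did not pass (adjusted p = 0.109). Every stress brain was nevertheless below every control brain for *Synm*, while the groups overlapped for *Vim* and *Nes*. Per length, control *Vim* stood at 83.6 RPKM beside 0.267 RPKM for *Gfap*.

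Among 14 transcription factors listed for the control of gliogenesis, for or against it, 3 rose and 1 fell, with a median Log2FC of 0.03. All 14 passed the filter. *Lhx2*, which holds cortical progenitors in the neurogenic state, rose from 155 ± 7.11 to 171 ± 4.49 CPM (Log2FC = 0.14, SE 0.03, adjusted p = 0.00317). *Nfia*, which starts gliogenesis, rose from 146 ± 6.996 to 159 ± 5.70 CPM (Log2FC = 0.13, adjusted p = 0.0106), a call that was lost without control F37 or stress F35. *Id4*, an inhibitor of basic helix-loop-helix factors, rose from 323 ± 9.99 to 343 ± 10.7 CPM (Log2FC = 0.09, adjusted p = 0.0294), a call lost with no sex covariate and without control F36, F37 or M31 or stress F35 or M29 (adjusted p up to 0.119). *Zbtb20*, a factor of late cortical progenitors and astrocytes, fell from 178 ± 5.74 to 162 ± 6.29 CPM (Log2FC = -0.14, SE 0.03, adjusted p = 0.00332). *Sox9* (Log2FC = 0.09), *Nfib* (0.06), *Nfix* (-0.06) and *Stat3* (0.08) did not pass. Without control F37 or stress F35 only 1 of the 14 was called higher, and without control M31 or stress F34 there were 2 called lower.

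In the cytokine and growth factor signaling that drives astrocyte formation, 15 of 17 listed genes passed the filter, of which 1 rose and 1 fell, with a median Log2FC of -0.02. *Fgfr3*, an FGF receptor of glial progenitors, rose from 57.8 ± 3.5 to 66.7 ± 1.17 CPM (Log2FC = 0.21, SE 0.04, adjusted p = 0.000662). *Jak1*, the kinase that couples the gp130 receptors to STAT3, fell from 121 ± 2.06 to 111 ± 4.20 CPM (Log2FC = -0.13, SE 0.03, adjusted p = 0.0043). The ligands *Lif* and *Cntf* were below the filter, at under 0.4 CPM on average in each group.

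*Aqp4* encodes aquaporin-4, the water channel of astrocyte endfeet (ENSMUSG00000024411.10, chr18:15389496-15410982, minus strand, 6233 exon bases). Expression was 7.17, 7.83, 8.24 and 8.93 CPM in control F36, F37, M30 and M31. In stress F34, F35, M28 and M29 it was 6.52, 5.10, 5.30 and 4.25 CPM. All 4 stress brains were below all 4 control brains, with stress F34 nearest to them. The mean fell from 8.04 ± 0.736 to 5.29 ± 0.936 CPM (SD, n = 4; Log2FC = -0.61, SE 0.10, 95% interval -0.82 to -0.39, adjusted p = 0.000294). The call held in all 14 alternatives, the 8 that left out a brain included, with a Log2FC between -0.74 and -0.50. These values rest on 123 to 254 counts per brain.

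*Gja1* encodes connexin 43, the main gap junction protein of astrocytes and radial glia (ENSMUSG00000050953.10, chr10:56377330-56402513, plus strand, 10257 exon bases). Its level was 21.6 to 24.6 CPM in control and 21.0 to 24.5 CPM in stress, and the groups overlapped almost entirely. The means were 23.0 ± 1.25 and 22.5 ± 1.47 CPM (Log2FC = -0.04, SE 0.05, 95% interval -0.15 to 0.07, adjusted p = 0.707). Of the other connexins, *Gjc1* (connexin 45) was at 52.4 ± 1.75 and 55.5 ± 1.56 CPM (adjusted p = 0.117) and the vascular *Gja4* (connexin 37) at 6.56 ± 0.604 and 6.76 ± 0.502 CPM (adjusted p = 0.787). The partner connexins of mature astrocytes, *Gjb6* and *Gjb2*, were below the filter.

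Of 13 listed genes for endfeet, gap junctions and ion transport, 11 passed the filter, of which 6 fell and 1 rose, with a median Log2FC of -0.20. The count of fallers was 5 with DESeq2, with no filter and without control F37, M30 or M31 or stress F35, M28 or M29. *Atp1b2*, the glial beta subunit of the sodium pump, fell from 106 ± 4.03 to 90.7 ± 1.44 CPM (Log2FC = -0.22, SE 0.03, adjusted p = 3.03e-05). *Hepacam* (GlialCAM) and *Mlc1*, which together form a membrane complex at endfeet, fell from 14.2 ± 0.487 to 11.4 ± 0.535 CPM (Log2FC = -0.31, adjusted p = 0.00117) and from 33.3 ± 1.9 to 29.03 ± 1.02 CPM (Log2FC = -0.20, adjusted p = 0.00494). *Dtna* (alpha-dystrobrevin), part of the dystrophin complex that anchors aquaporin-4, fell from 52.5 ± 0.806 to 45.3 ± 3.35 CPM (Log2FC = -0.22, adjusted p = 0.00113). In each of these 4 genes no stress brain reached the lowest control brain. The riser was *Slc12a2*, a chloride importer that is also abundant in progenitors and choroid plexus (Log2FC = 0.10, adjusted p = 0.046), a call that was lost with DESeq2, with upper-quartile scaling, with no filter on low counts and without control F36, F37 or M30 or stress F35 or M28. With no filter *Gjb6* was the 1 gene of the list called higher. *Kcnj10* (Kir4.1), the potassium channel of endfeet, was at 24.1 ± 2.19 and 23.3 ± 1.78 CPM and did not pass (adjusted p = 0.613).

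*S100b* encodes a calcium-binding protein of astrocytes and some oligodendrocyte lineage cells (ENSMUSG00000033208.7, chr10:76253853-76261159, plus strand, 1484 exon bases). It was counted 38, 30, 34 and 41 times in control F36, F37, M30 and M31, and 20, 21, 37 and 19 times in stress F34, F35, M28 and M29. Stress M28 stood among the control brains, while the other 3 stress brains were below every control brain. The means were 1.28 ± 0.172 and 0.875 ± 0.285 CPM (Log2FC = -0.55, SE 0.21, 95% interval -0.99 to -0.11), and the difference did not pass the adjustment (adjusted p = 0.0913). Without stress M28 the Log2FC was -0.79 and the adjusted p 0.0242. The paralogue *S100a10*, a partner of annexin A2, fell from 23.9 ± 0.936 to 20.6 ± 0.740 CPM (Log2FC = -0.21, SE 0.05, adjusted p = 0.00403), and *S100a13* and *S100a16* did not pass (adjusted p = 0.528 and 0.578).

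*Slc1a2* encodes GLT-1, the main glutamate transporter of mature astrocytes (ENSMUSG00000005089.15, chr2:102658659-102790784, plus strand, 13133 exon bases). It was at 164, 157, 156 and 162 CPM in control F36, F37, M30 and M31 and at 146, 163, 150 and 152 CPM in stress F34, F35, M28 and M29. Stress F35 lay within the control range and the other 3 stress brains below it. The means were 160 ± 3.87 and 153 ± 7.42 CPM (Log2FC = -0.07, SE 0.03, 95% interval -0.13 to 0.0003, adjusted p = 0.188). Without stress F35 the Log2FC was -0.10 and the adjusted p 0.0250. The fetal glial transporter *Slc1a3* (GLAST) stood higher per length than *Slc1a2*, at 22.8 RPKM in control beside 12.2 RPKM, and its 195 ± 2.71 and 190 ± 5.22 CPM did not pass (adjusted p = 0.437). The paralogues *Slc1a1*, the neuronal transporter EAAC1, and *Slc1a4*, an exchanger of serine and other neutral amino acids, fell (Log2FC = -0.16 and -0.10, adjusted p = 0.0159 and 0.0311). The *Slc1a1* call was lost without control M30, stress F34 or stress M28, and 42.6% of its exon bases are shared with another gene. The *Slc1a4* call was lost with DESeq2 and held only without control F37 or stress F34 among the 8 fits that left out a brain.

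Of the 10 genes for uptake and turnover of glutamate and GABA, 3 fell and 0 rose, with a median Log2FC of -0.04. *Slc38a3* (SNAT3), which exports glutamine from astrocytes, fell from 32.9 ± 0.555 to 28.5 ± 1.26 CPM (Log2FC = -0.21, SE 0.04, adjusted p = 0.00147). *Slc6a11* (GAT-3), the astrocytic GABA transporter, fell from 68.5 ± 2.66 to 59.3 ± 5.74 CPM (Log2FC = -0.21, SE 0.04, adjusted p = 0.00156), although stress F35 reached the control range. *Slc6a9* (GLYT1), the glial glycine transporter, fell from 21.6 ± 1.003 to 18.8 ± 1.49 CPM (Log2FC = -0.20, SE 0.05, adjusted p = 0.0129), a call lost without stress M29 (adjusted p = 0.0859), and 30.2% of its exon bases are shared with another gene. *Glul*, glutamine synthetase, was at 177 ± 4.17 and 172 ± 4.11 CPM and did not pass (adjusted p = 0.462).

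*Aldh1l1* encodes a folate dehydrogenase that marks astrocytes broadly (ENSMUSG00000030088.15, chr6:90486427-90600203, plus strand, 4516 exon bases, 13.4% of them shared with 2 other genes). Its level was 46.5 to 52.5 CPM in control and 46.1 to 50.7 CPM in stress, with means of 48.6 ± 2.66 and 48.3 ± 2.05 CPM. The Log2FC was -0.01 (SE 0.04, 95% interval -0.09 to 0.07, adjusted p = 0.918). *Aldoc* encodes the brain aldolase, a glycolytic enzyme of glia (ENSMUSG00000017390.15, chr11:78322968-78327781, plus strand, 3263 exon bases). It was at 107 to 115 CPM in control and 102 to 117 CPM in stress, with means of 111 ± 3.85 and 108 ± 6.65 CPM (Log2FC = -0.04, SE 0.03, 95% interval -0.11 to 0.03, adjusted p = 0.513). Both intervals leave room only for small differences, and in both genes the groups overlapped.

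Of 40 paralogues of the 9 genes, 30 passed the filter, of which 4 fell and 1, *Vim*, rose, with a median Log2FC of -0.03. Without control M30 or stress M28 there were 2 that fell, and without stress M28 or M29 there were 2 that rose, and with no filter on low counts 3. *Aldoa*, the broadly expressed aldolase, fell from 240 ± 2.76 to 214 ± 4.22 CPM (Log2FC = -0.17, SE 0.03, adjusted p = 0.000127), with all 4 stress brains below all control brains. *Aldh1l2*, the mitochondrial counterpart of *Aldh1l1*, did not pass (Log2FC = -0.08, adjusted p = 0.183). Of 16 genes of folate, serine and glycolytic metabolism, 3 rose and 1 fell, with a median Log2FC of 0.02. The risers were *Psat1*, of serine synthesis (Log2FC = 0.18, adjusted p = 0.000327), *Gldc*, of glycine cleavage (Log2FC = 0.23, adjusted p = 0.00353), and *Shmt1*, which passes carbon from serine to folate (Log2FC = 0.28, adjusted p = 0.00506). *Ldha*, which makes lactate, fell from 226 ± 11.1 to 187 ± 5.29 CPM (Log2FC = -0.27, SE 0.03, adjusted p = 2.06e-06). Without control F36 or M30 there were 2 of the 16 called lower.

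*Tnc* encodes tenascin-C, an extracellular matrix protein of radial glia and glioblasts (ENSMUSG00000028364.15, chr4:63959785-64047015, minus strand, 7772 exon bases). It was the gene of the 9 with the most counts and the smallest coefficient of variation in each group (2.05% in control and 3.30% in stress), at 201 to 211 CPM in control and 197 to 212 CPM in stress. The means were 205 ± 4.20 and 203 ± 6.71 CPM (Log2FC = -0.01, SE 0.03, 95% interval -0.07 to 0.05, adjusted p = 0.835). Its relative *Tnr* (tenascin-R), made by the oligodendrocyte lineage, was at 55.2 ± 4.44 and 50.7 ± 1.97 CPM and did not pass (adjusted p = 0.0764). Of the 20 listed partners and matrix genes, 1 fell and 0 rose, with a median Log2FC of -0.07. The gene that fell was *Cntn1* (contactin-1), a cell surface receptor that binds tenascins, from 105 ± 5.22 to 86.8 ± 7.64 CPM (Log2FC = -0.28, SE 0.04, adjusted p = 0.000111). Without control F36, or with no filter on low counts, there were 3.

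*Apoe* encodes apolipoprotein E, which carries cholesterol and phospholipid from glia to neurons (ENSMUSG00000002985.16, chr7:19696109-19699188, minus strand, 2138 exon bases). The promoter windows were also read for the short element of nuclear factor I (NFI), TTGGC on either strand. Below is the stretch from 100 bases before to 10 bases into the *Apoe* transcript whose start lies farthest upstream. It is chr7:19699179-19699288 on the minus strand of GRCm38.p6, with the NFI element in capitals.
Apoe: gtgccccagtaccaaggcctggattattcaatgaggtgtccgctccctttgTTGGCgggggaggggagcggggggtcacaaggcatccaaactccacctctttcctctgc
NFI elements occurred in 6 of the 12 windows, from 5 of the 8 genes with a window, and in 46.7% of all 32851 windows. In *S100b*, 4 NFI elements fell in 1 window, of which 2 lie close together just before the start, at chr10:76253799-76253819 and chr10:76253809-76253829 on the plus strand.
S100b first: ccctatccTTGGCccccattg
S100b second: ggcccccaTTGGCagcctcag
The paired full site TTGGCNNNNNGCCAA, which would also be counted as NFI elements, was in 0 of the 12 windows and in 0.0365% of all windows.

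*Apoe* was at 65.3, 62.0, 58.8 and 61.0 CPM in control F36, F37, M30 and M31. In stress F34, F35, M28 and M29 it was at 52.5, 52.0, 53.9 and 45.5 CPM. All 4 stress brains were below all control brains, and stress M29 was the lowest. The mean fell from 61.8 ± 2.74 to 50.9 ± 3.74 CPM (SD, n = 4; Log2FC = -0.28, SE 0.04, 95% interval -0.36 to -0.19, adjusted p = 7.99e-05). The call held in all 14 alternatives, with a Log2FC between -0.33 and -0.23. With 1316 to 1795 counts per brain, *Apoe* was measured more precisely than *Gfap* or *Aqp4*, and its interval was the narrowest of the 3 genes called.

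Of 16 genes of lipoprotein assembly and uptake, 15 passed the filter, of which 2 fell and 1 rose, with a median Log2FC of -0.03. *Lrp1*, a receptor for apolipoprotein E, fell from 434 ± 4.03 to 398 ± 24.96 CPM (Log2FC = -0.13, SE 0.03, adjusted p = 0.0093), although stress F34 stayed within the control range. *Clu* (clusterin), the other main apolipoprotein of astrocytes, fell from 38.4 ± 1.30 to 34.8 ± 1.94 CPM (Log2FC = -0.14, SE 0.04, adjusted p = 0.0325), a call that was lost with DESeq2 (adjusted p = 0.0779), with no sex covariate and without control F36, F37 or M30 or stress F35 or M29. *Abca1*, which loads lipid onto apolipoprotein E, was at 70.9 ± 4.54 and 66.8 ± 2.35 CPM and did not pass (adjusted p = 0.168).

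Beyond the 9 genes, 34 other markers of glioblasts and astrocytes were read, of which 33 passed the filter, 7 fell and 1 rose, with a median Log2FC of -0.07. With DESeq2 the count of fallers was 5, and in the other alternatives it lay between 6 and 9. *Slco1c1*, a thyroid hormone transporter of astrocytes and brain endothelium, fell from 23.8 ± 1.53 to 16.2 ± 0.694 CPM (Log2FC = -0.55, SE 0.06, adjusted p = 7.31e-07). *Cspg5* (neuroglycan C) fell from 174 ± 3.5 to 149 ± 4.58 CPM (Log2FC = -0.22, SE 0.03, adjusted p = 1.28e-05), and *Sparcl1* (hevin), a matrix protein that promotes synapse formation, from 188 ± 5.83 to 160 ± 8.47 CPM (Log2FC = -0.24, SE 0.03, adjusted p = 3.95e-05). In these 3 genes every stress brain was below every control brain. The riser was *Megf10*, an engulfment receptor (Log2FC = 0.19, adjusted p = 0.00265), joined by 1 more gene when control M30 was left out. The most abundant markers of the list, *Fabp7* (557 ± 10.8 and 551 ± 26.9 CPM) and *Ptn* (436 ± 5.77 and 436 ± 20.6 CPM), did not pass (adjusted p = 0.760 and 0.995). Some genes stand in more than 1 list, among them *Hepacam*, *Mlc1*, *Clu* and *Vim*.

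**Figure D3:**
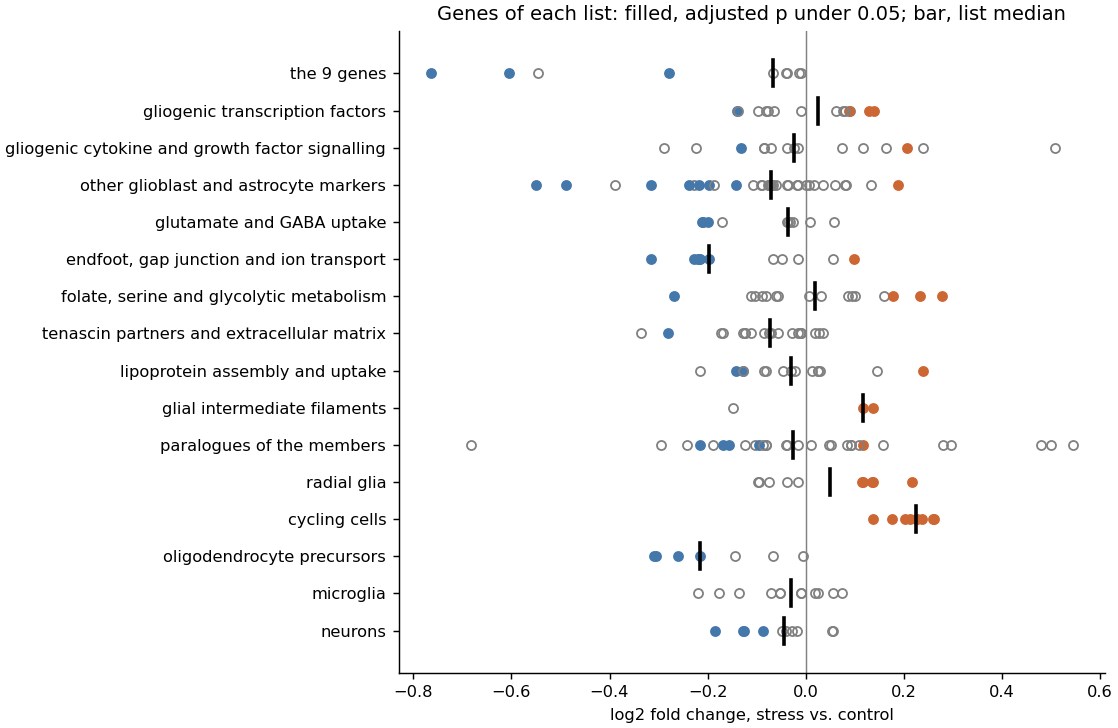
Log2FC (stress vs. control) of every tested gene of each list, 1 row per list; filled points passed an adjusted p of 0.05 (orange higher, blue lower), open grey points did not, and the black bar is the list's median. Endfoot genes lie mostly below 0 (6 lower, 1 higher, median -0.20) and all 9 cycling cell genes lie above 0 (median 0.23), while the 9 astrocyte and glioblast genes divide into 3 that were called lower and 6 that were not called.

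The comparison was also made within each sex, 2 brains against 2, where the smallest exact permutation p is 0.333. In females 1 of the 9 genes, *Apoe*, was called lower, beside 2.27% of 17969 genes tested. *Apoe* was at 65.3 and 62.0 CPM in the control females and at 52.5 and 52.0 CPM in the stress females (Log2FC = -0.29, SE 0.05, adjusted p = 0.00122). In males 2 of the 9, *Aqp4* and *Apoe*, were called lower, beside 4.81% of 18057 genes tested. Male *Aqp4* had means of 8.58 and 4.77 CPM (Log2FC = -0.85, SE 0.13, adjusted p = 7.31e-05), and male *Apoe* had a Log2FC of -0.27 (SE 0.06, adjusted p = 0.00277). With DESeq2 the male *Apoe* call was lost (adjusted p = 0.0516).

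In females *Aqp4* had means of 7.50 and 5.81 CPM and a Log2FC of -0.36 (SE 0.13), which did not pass (adjusted p = 0.121). The difference between the sexes in the response was tested as an interaction, male minus female. For *Aqp4* it was -0.48 (SE 0.19, unadjusted p = 0.0187, adjusted p = 0.688) and for *Gja1*, whose Log2FC was 0.07 in females and -0.15 in males, it was -0.22 (SE 0.10, unadjusted p = 0.0364, adjusted p = 0.764). By edgeR's test 0 of the 9 genes passed for the interaction, 2 had an unadjusted p below 0.05 and DESeq2 called 0. Over all genes 0.0056% were called and 6.31% had an unadjusted p below 0.05. A different response of males and females was therefore not shown for any of the 9 genes, and the wide intervals of 2 brains against 2 leave differences of the size seen in *Aqp4* possible.

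Males and females were also compared across both groups. By edgeR's test 0 of the 9 genes differed, beside 0.0896% of all genes called, and DESeq2 called 0. At an unadjusted p below 0.05 there were 2, beside 5.91% of all genes, *Aldh1l1*, which was lower in males (Log2FC = -0.09, SE 0.04, unadjusted p = 0.0332), and *Aldoc*, which was higher in males (Log2FC = 0.07, SE 0.03, unadjusted p = 0.04999), and both had an adjusted p of 0.841 or more.

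**Figure D4:**
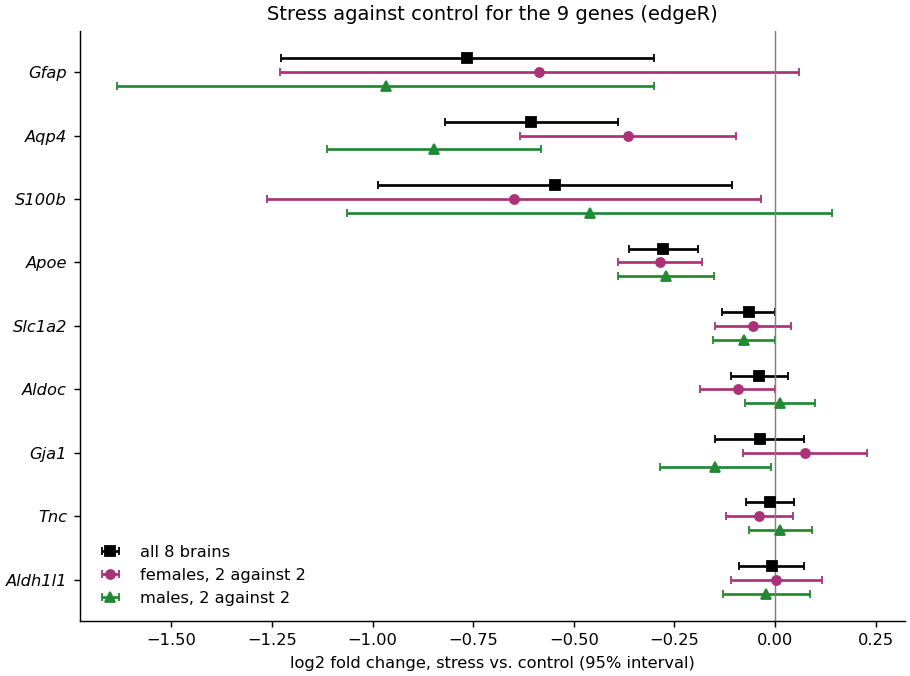
Log2FC (stress vs. control) of the 9 genes with 95% intervals from edgeR, for all 8 brains (black squares), females alone (purple circles) and males alone (green triangles). The interval over all brains lies wholly below 0 for *Gfap*, *Aqp4*, *S100b* and *Apoe*, and *S100b* (adjusted p = 0.0913) is the one of these that was not called; for *Aqp4* the male point (-0.85) lies left of the female point (-0.36).

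Markers of other cells were read in the same brains, because these cells also carry some of the 9 genes. Microglia, which express *Apoe*, had a summed level of 60.7 to 64.1 CPM over 12 markers in control and 59.0 to 65.8 CPM in stress. Of these 12 markers 0 were called by edgeR, and the defining *P2ry12* was at 4.86 ± 0.0350 and 4.30 ± 0.469 CPM (adjusted p = 0.257). Oligodendrocyte precursors, which share *S100b* and other glial genes, had 151 to 168 CPM over 7 markers in control and 135 to 140 CPM in stress, with 4 of 7 called lower and a median Log2FC of -0.22. The 4 were *Pdgfra*, *Olig1*, *Gpr17* and *Lhfpl3*, and *Sox10* was at 5.63 ± 0.158 and 5.61 ± 0.92 CPM. The precursor markers thus moved with *Gfap*, *Aqp4* and *Apoe*, and their part in those differences was not tested.

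Radial glia markers had a summed level of 2051 to 2142 CPM in control and 2062 to 2195 CPM in stress, with 5 of 10 called higher, *Pax6*, *Sox2*, *Nes*, *Vim* and *Emx2*, and 0 lower (1 without control F36 or M31 or with no filter). All 9 markers of cycling cells were called higher, with a summed level of 632 to 679 CPM in control and 710 to 806 CPM in stress. Among 10 neuronal markers 4 were called lower, *Syp*, *Rbfox3*, *Stmn2* and *Snap25*, and the summed level was 6704 to 6947 CPM in control and 6602 to 6879 CPM in stress. Of 10 markers of endothelium and pericytes, *Kdr*, *Cldn5* and *Tek* were called lower, at 264 to 291 CPM in sum in control and 260 to 273 CPM in stress. The neuronal count was 2 with no sex covariate and without control F36, stress F34 or stress M28, and the vascular count was 1 with DESeq2, with no sex covariate and without control F37, control M31 or stress M28. The part of these cells in the differences of *Gfap*, *Aqp4* and *Apoe* was not tested.

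Tissue that borders the brain differed between single brains. Choroid plexus markers summed to 41.0 to 51.7 CPM in control and 50.02 to 80.3 CPM in stress, with stress F34 highest, and meningeal markers to 17.8 to 31.8 CPM in control and 23.6 to 66.4 CPM in stress, with stress M28 highest. In each of these lists 3 of 8 tested markers were called higher. For choroid plexus 1 of these remained with DESeq2, with no sex covariate and without stress F34 or control F37. For the meninges 0 remained with DESeq2 and 1 without stress M28, while 5 were called without control F36 or stress F35. Without stress F34 the Log2FC was -0.93 for *Gfap*, -0.74 for *Aqp4* and -0.28 for *Apoe*, and all 3 were called. Without stress M28 it was -0.67, -0.61 and -0.33, and *Gfap* was not called (adjusted p = 0.0817). The part of bordering tissue in the 3 differences was not tested. Motile cilia genes of the ependyma, another source of *Aqp4* and *S100b*, were low, at 18.6 to 21.5 CPM over 6 markers in control and 15.7 to 21.1 CPM in stress, with *Ccdc153* and *Tmem212* below the filter and 0 of 4 tested markers called. Olfactory ensheathing cell markers summed to 48.4 to 52.6 CPM and 46.0 to 57.4 CPM, with 1 of 6 called higher and 1 lower, and 0 of either with DESeq2. The higher call was also lost without stress M28, and the lower call with no sex covariate and without control F36, F37 or M30 or stress F34. Erythroid markers summed to 364 to 412 CPM and 370 to 384 CPM, with 2 of 8 called higher and 1 lower, the latter lost without control F37 or stress F34.

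**Figure D5:**
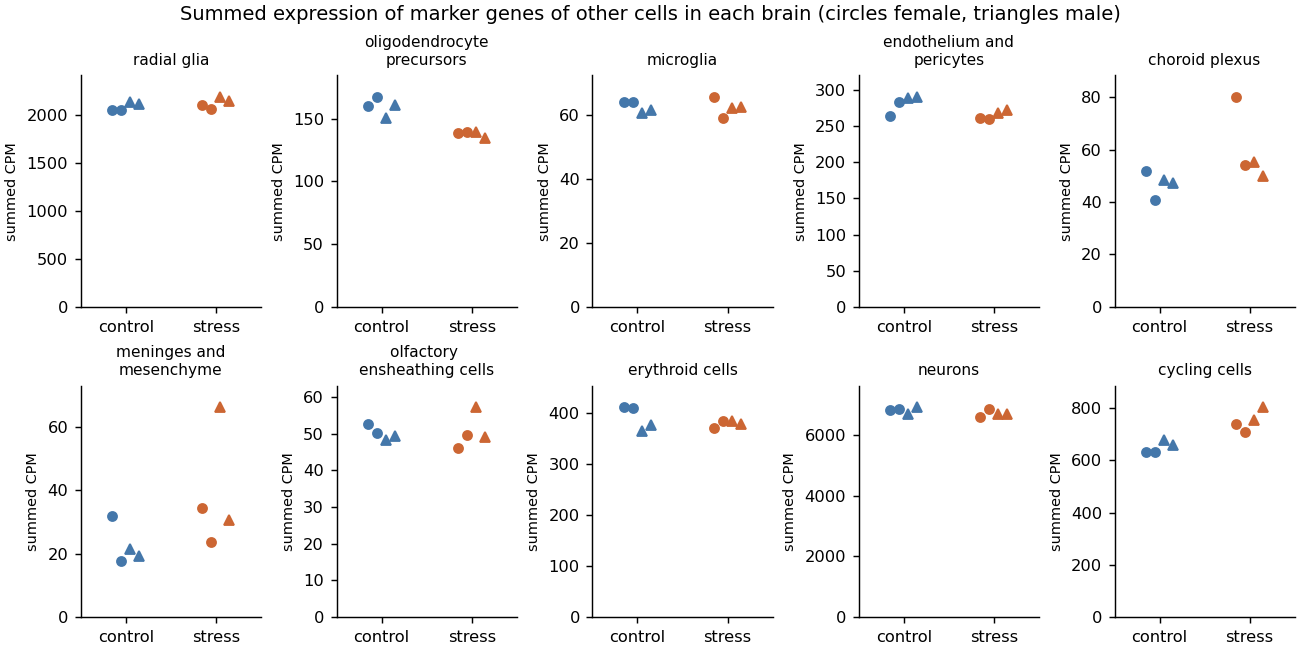
Summed CPM of the marker genes of other cells in each brain, control in blue and stress in orange, with 1 panel per list, circles for females and triangles for males. Oligodendrocyte precursor markers are lower in all 4 stress brains (135 to 140 against 151 to 168 CPM), cycling cell markers are higher in all 4 (710 to 806 against 632 to 679 CPM), and microglial markers overlap.

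The likeness of each of the 9 genes to 248 genes of all lists was measured by Pearson's r of log2 CPM over the 8 brains, as a description. These brains share the division into 2 litters, so a gene that differs between the groups resembles others that do. *Gpr17*, a receptor of oligodendrocyte precursors, was among the 2 genes most like *Aqp4* (r = 0.949) and among the 2 most like *Gfap* (r = 0.903). *Apoe* was most like *Slc6a9* (r = 0.972) and *Cspg5* (r = 0.971). *S100b* was most like its paralogues *S100a10* (r = 0.875) and *S100a13* (r = 0.867), and *Slc1a2* like the synaptic gene *Snap25* (r = 0.910). The highest r was 0.886 for *Aldh1l1*, 0.852 for *Tnc*, 0.802 for *Aldoc* and 0.801 for *Gja1*.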

How the data were processed

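RNA of 8 brains was extracted with a lipid tissue kit, mRNA was captured with oligo(dT) beads, and paired reads were sequenced. After trimming with Trim Galore and alignment to mm10 with TopHat2 2.1.1, the authors counted read pairs per GENCODE gene with featureCounts 1.6.3, and the deposited values are these raw counts. No strand option is stated, so pairs from exons that 2 genes share on either strand cannot be told apart. Versions of these tools are from the submitters' processing notes and the study's methods. Of the 54752 identifiers, 54723 were matched to a symbol, and for *Aldoa*, which has 2 rows, the row with more counts was used.

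The counts were analysed in R 4.3.3 with edgeR 4.0.16 and limma 3.58.1 (filterByExpr with a minimum count of 10, TMM, glmQLFit, glmQLFTest, sex and condition in the model, Benjamini-Hochberg). The SE is the absolute Log2FC over the root of the F statistic. Sexes were also fitted alone, and an interaction was fitted over all 8 brains. The study's model also held batch, and its library list names none for these brains. Log2 CPM used a prior count of 2. Alternatives were DESeq2 1.42.0, median-of-ratios, upper-quartile and unscaled totals, no filter, no sex covariate, and each brain left out in turn. The fits were tested on counts simulated without litter differences, so that test does not address the confounding of condition and litter.

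The 9 genes and all lists were chosen with earlier results of these data known. In each related list, up to 4 called genes with the smallest p were named, with paralogues of the 9 genes and the 2 genes most like each. Some genes that these rules would name are not reported here. *Megf10*, *Slc12a2*, genes named as not called and single markers of other cells were chosen after their values were seen. Promoter windows (GRCm38.p6) and motifs used RefSeq, which held 12 windows for 8 of the 9 genes and none for *Aqp4* in the table used here. The study's other animals were not analysed here. Replicates were separate brains of 1 litter per group, so p-values measure the spread among littermates.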

Additional observations from a re-analysis of the deposited data

Results flagged for a closer look

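In none of the 9 astrocyte and glioblast genes did a brain's gap to its nearest neighbor exceed Dixon's critical share of the group's range. Below that limit, single brains still stood away from the others of their group. *S100b* was at 1.29 CPM in stress M28 and at 0.656 to 0.830 CPM in the other stress brains. *Slc1a2* was at 163 CPM in stress F35 and at 146 to 152 CPM in the other stress brains. Each of these genes was called only in the fit without that brain. Among the 38 genes read, the 9 and the named genes of the lists, 4 of 76 groups of 4 brains held a brain whose gap to its nearest neighbor exceeded Dixon's critical share of the group's range, and chance gives about 1 in 20. *Zbtb20* was at 169.6 CPM in control F37 and at 180 to 182 CPM in the other control brains. *Cspg5* was at 142 CPM in stress M29 and at 151 to 152 CPM in the other stress brains. *Gldc* was at 21.5 CPM in stress F35 and at 25.4 to 25.8 CPM in the other stress brains. *Shmt1* was at 11.03 CPM in control F36 and at 9.77 to 9.98 CPM in the other control brains. The calls of these 4 genes held in all 8 fits that left out a brain.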

How the results depend on the processing

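No called value changed direction under any alternative. *Aqp4* and *Apoe* were called in all 14 alternatives and *Gfap* in 7 of 14. *Aldh1l1*, *Aldoc*, *Tnc* and *Gja1* were called in none, and *S100b* and *Slc1a2* each in 1, the fits without stress M28 and without stress F35. In males, DESeq2 called 1 of the 9 genes lower in place of 2. Over all genes, 748 were called higher with DESeq2 in place of 1160, and 911 were called lower in place of 1298. With a brain left out, between 736 and 1057 were called higher, and between 854 and 1308 in place of 1298 were called lower, the fewest of both without stress M29. Scaling moved the median Log2FC of all genes by less than 0.1.

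Values that were not called crossed 0 when single brains were left out. For stress vs. control the Log2FC ran from -0.0408 to 0.0175 for *Aldh1l1*, from -0.0396 to 0.00335 for *Tnc* and from -0.0912 to 0.000967 for *Gja1*. For male vs. female it ran from -0.0935 to 0.101 for *Aqp4*, from -0.0514 to 0.0142 for *Slc1a2*, from -0.0309 to 0.0120 for *Tnc* and from -0.0351 to 0.0547 for *Gja1*. For the interaction it ran from -0.0985 to 0.0478 for *Aldh1l1*, from -0.375 to 0.596 for *S100b*, from -0.101 to 0.0652 for *Slc1a2*, from -0.00307 to 0.105 for *Tnc* and from -0.113 to 0.133 for *Apoe*. The depth limits *Gfap* and *S100b*, with 14 to 41 counts per brain. No paired analysis was possible because the groups came from separate litters and no label links a stress brain to a control brain.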
